A study of Mus musculus with 4 samples.

Results

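The genes described here are 10 NF-κB genes of mouse CD4+ T cells, of 38282 gene IDs listed in the deposited tables. They are 5 subunits (Nfkb1, Nfkb2, Rel, Rela and Relb) and 5 inhibitors that the pathway itself induces (Nfkbia, Nfkbid, Nfkbie, Nfkbiz and Tnfaip3), chosen by name and function and found through their Ensembl IDs in GENCODE M21. The cells were naive CD4+ T cells from the spleens of C57BL/6 mice, kept under the Th0 condition with dopamine (Th0+Dopa, 2 libraries) or without it (Th0, 2 libraries) and harvested on day 4. Th0 is the usual term for stimulation with no polarizing cytokine added. The libraries of each group are numbered 2 and 3 in the labels. The sources used here do not state the dopamine dose, when it was added, the age of the mice or whether animals were pooled. RNA level is given as FPKM, fragments scaled by transcript length and by library size, so genes can be set side by side within a library. Between libraries the levels depend on the scaling, which the sources used here do not state.

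NF-κB factors are dimers of 5 related subunits. In resting cells the inhibitors of the IκB family hold them in the cytoplasm, and signals from the T cell receptor and CD28 lead an IκB kinase to mark the inhibitors for destruction. The canonical arm mainly uses Rela, Rel and the short product of Nfkb1, while the slower non-canonical arm uses Relb with the short product of Nfkb2. Several inhibitor genes are themselves switched on by NF-κB, which makes them feedback regulators, and in T cells the pathway is known for driving cytokine, survival and costimulatory genes.

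The promoters of this feedback are shown first, because binding sites for NF-κB before its own inhibitors are the textbook basis of the loop. Of the 10 genes, 7 had an entry in the RefSeq promoter table (GRCm38.p6), which holds 250 bases before and 50 after each annotated start. Nfkb1, Relb and Nfkbiz had no entry, so their promoters were not searched. The κB consensus was searched on both strands. A match lay in a promoter of 6 of these 7 genes (Nfkb2, Rel, Nfkbia, Nfkbid, Nfkbie and Tnfaip3, but not Rela), against 5.14% of the 27025 genes in the table. By promoter, 8 of the 12 listed for these genes held a match, against 4.51% of 32851. Promoters are not separate units here, as those of Nfkb2 that overlap share a GGGACTTTCC match. The inhibitors were chosen as genes that the pathway induces, so a high share of matches can follow from that choice. The shares were not tested. A match describes letters and does not show that a factor bound there. The 130 bases before the start are printed 5′ to 3′ on the strand of the gene for the inhibitor of highest level (Nfkbia), one of low level (Nfkbie), the inhibitor with the difference of largest size (Tnfaip3) and the subunit Rel. Capitals mark matches to the consensus.
Nfkbia (chr12:55492648-55492777, minus strand): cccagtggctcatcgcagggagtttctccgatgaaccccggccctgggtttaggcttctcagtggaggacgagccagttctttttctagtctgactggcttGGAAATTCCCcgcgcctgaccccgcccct
Nfkbie (chr17:45555570-45555699, plus strand): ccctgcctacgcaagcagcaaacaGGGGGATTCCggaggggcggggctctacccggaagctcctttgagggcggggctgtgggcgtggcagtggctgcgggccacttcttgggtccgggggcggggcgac
Tnfaip3 (chr10:19015411-19015540, minus strand): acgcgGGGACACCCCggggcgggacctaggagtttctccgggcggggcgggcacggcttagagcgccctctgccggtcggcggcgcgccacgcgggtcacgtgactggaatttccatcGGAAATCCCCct
Rel (chr11:23770970-23771099, minus strand): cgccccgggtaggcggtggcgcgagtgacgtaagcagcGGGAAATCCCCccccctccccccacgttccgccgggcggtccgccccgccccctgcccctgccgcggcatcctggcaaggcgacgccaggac

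In Nfkbia the match was GGGAATTTCC on the opposite strand, at -29 to -20 from the start. Tnfaip3 held GGGGATTTCC on the opposite strand at -12 to -3, and a second match, GGGACACCCC, at -125 to -116. In Rel 2 matches overlapped, of which GGGAAATCCC at -92 to -83 reads as a match on both strands. Nfkbie held GGGGGATTCC at -106 to -97. For Nfkb2 the first promoter in the table held GGGGCTTTCC at -11 to -2, and a match at -39 to -30 that reads on both strands.

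All 10 genes passed the filter on low values (a mean of at least 1 FPKM over the 4 libraries), and their order of level was nearly the same in every library. The precursor subunit Nfkb1 was the highest and the inhibitor Nfkbia, which encodes IκBα, the next. Nfkb1 stood at 147 and 142 FPKM with dopamine and at 152 and 138 FPKM in Th0 (libraries 2 and 3 in each case, here and below). Its mean level lay at the 94.7th percentile of the 11423 genes tested. Below Nfkb1 and Nfkbia, Nfkbid and then Nfkb2 had the highest levels in all 4 libraries. Rela, the transactivating subunit of the canonical heterodimer, was the lowest of the 10 in every library, at the 30.5th percentile. Relb lay above Tnfaip3 in both dopamine libraries and below it in both Th0 libraries. At the low end, Rel lay below Nfkbie in Th0+Dopa 2 (4.94 against 8.51 FPKM) and above it in Th0+Dopa 3 (10.2 against 8.65 FPKM). The order of Rel and Nfkbie was thus not resolved with dopamine. Rela lay only just below Rel in Th0+Dopa 2 (4.76 against 4.94 FPKM).

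**Figure D1:**
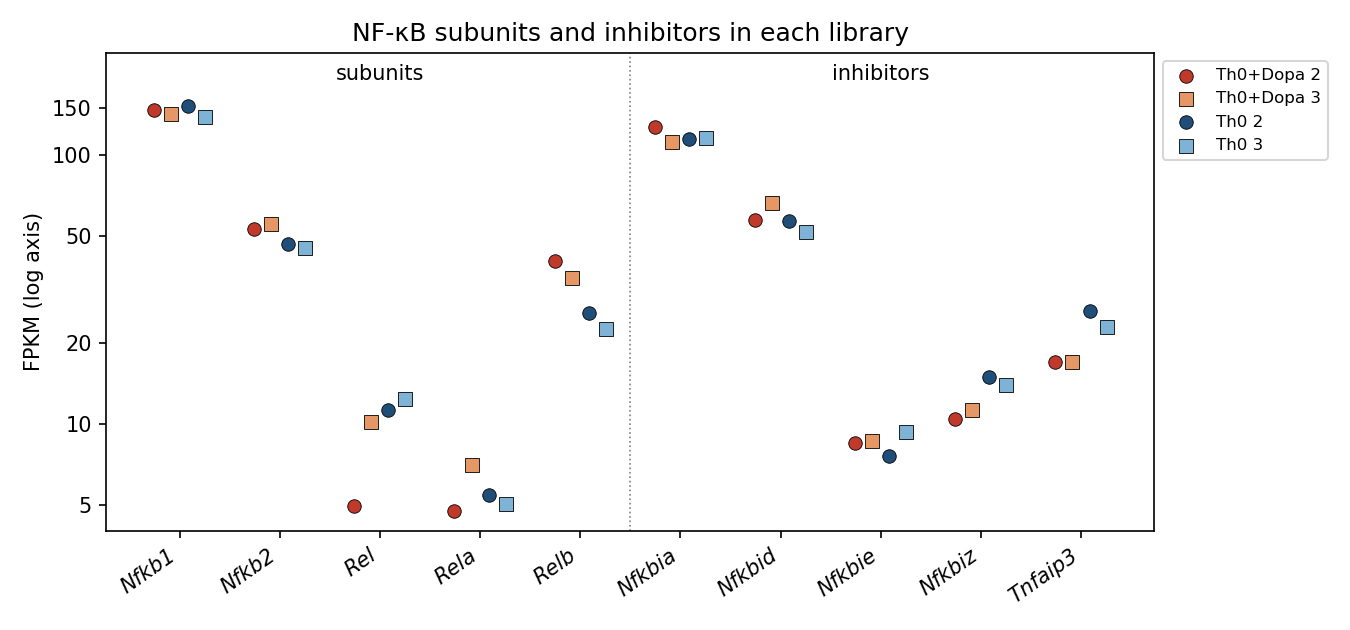
FPKM (log axis) of each gene in each of the 4 libraries; points are single libraries, those with dopamine left of those from Th0. Relb, Nfkb2 and Nfkbid lie higher and Tnfaip3, Nfkbiz and Rel lie lower in both dopamine libraries than in both Th0 libraries, while Nfkb1 and Nfkbia sit at the top in each. Of all genes tested, 31.4% lay higher and 25.6% lower in this way.

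With dopamine, 1 of the 10 genes rose past the threshold and 0 fell. The test was limma within the deposited tables, on log2(FPKM + 1), with Benjamini-Hochberg adjustment over all 11423 genes tested and a call at an adjusted p under 0.05. Of all genes tested, 6.28% were called higher and 4.39% lower, so the number of calls among the 10 was near that background. At an unadjusted p under 0.05, 1 of the 10 was higher and 3 were lower, 4 of 10 against 27.8% of all genes tested. Both dopamine libraries lay above both Th0 libraries for 3 genes (31.4% of all genes tested) and below them for 3 others (25.6%), 6 of the 10 without overlap against 57.0% of all genes tested. The difference had the same sign in both tables for 6 of the 10, while 69.9% of all genes tested had one sign in both. The median difference of the 10 was 0.04, against 0.03 over all genes tested.

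Relb was the gene that rose. It encodes the subunit that pairs with the Nfkb2 product in the non-canonical arm. Relb (ENSMUSG00000002983, chromosome 7, 19606217 to 19629438, GRCm38) stood at 40.5 and 34.9 FPKM with dopamine and at 25.8 and 22.5 FPKM in Th0. The lowest dopamine value thus lay above the highest Th0 value. The means were 37.7 ± 3.93 FPKM with dopamine and 24.1 ± 2.34 FPKM in Th0 (SD, n = 2 each, levels taken across the separate tables). The difference on the log2(FPKM + 1) scale was 0.62 ± 0.12 (SE), or 1.54-fold, with nearly the same value in the first table (0.63) and the second (0.62; limma adjusted p = 0.0328). After a correction for GC content and transcript length the difference was 0.33 ± 0.11 and did not pass (limma adjusted p = 0.149; the mean GC content of Relb transcripts is 59.9%). With libraries scaled to a common sum it was 0.38 (limma adjusted p = 0.157), a scaling that moved the median of all genes to -0.20, so that Relb lay 0.58 above that median.

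Nfkb2, the precursor partner of Relb, was also higher in both dopamine libraries but did not pass. It stood at 53.1 and 55.7 FPKM with dopamine and at 46.6 and 45.0 FPKM in Th0. The difference was 0.24 ± 0.11, with a 95% confidence interval from -0.03 to 0.52 (limma adjusted p = 0.221), and it was -0.0060 under the common sum. After the correction for GC content and length it was 0.0020 (adjusted p = 0.994). Exons of Nfkb2 overlap those of Psd on the opposite strand over 299 bases. Psd was listed at no more than 0.581 FPKM in any library. They also overlap AC114539.1, a non-coding gene on the opposite strand, over 531 bases, and its level was not analysed here.

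Rel, the subunit most typical of lymphocytes, stood at 4.94 and 10.2 FPKM with dopamine and at 11.3 and 12.4 FPKM in Th0. Both dopamine libraries were lower than both Th0 libraries, but the 2 dopamine libraries differed from each other by far more than the Th0 libraries did. The difference was -1.05 in the first table and -0.26 in the second, -0.65 ± 0.23 in all (95% confidence interval from -1.23 to -0.08, limma adjusted p = 0.140). The library Th0+Dopa 2 set most of it: without that library the value was -0.21, and without Th0+Dopa 3 it was -1.10. Both values come from fits with no block, after median of ratios scaling. They thus compare libraries across the tables as well, unlike the value over all libraries. From the steps between low FPKM values, Rel was estimated to rest on about 230 and 480 fragments with dopamine and on about 540 and 450 in Th0.

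Rela and Nfkb1, the classical heterodimer, did not pass. Rela stood at 4.76 and 7.02 FPKM with dopamine and at 5.43 and 5.05 FPKM in Th0, lower in one table (-0.16) and higher in the other (0.41). Its difference of 0.12 ± 0.23 had a 95% confidence interval from -0.44 to 0.69 (limma adjusted p = 0.771), which leaves room for a sizeable change either way. Nfkb1 differed by -0.0030 ± 0.10, with an interval from -0.25 to 0.25 (limma adjusted p = 0.991), so its interval is the narrowest of the 10.

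Within a library, the share of each subunit in the summed FPKM of the 5 does not depend on how libraries are scaled. The correction for GC content and transcript length was not applied to these shares, nor to the ratios between genes. Relb made up 16.2% and 14.0% of that sum with dopamine and 10.7% and 10.1% in Th0. Nfkb1 made up 58.8% and 56.9% with dopamine and 63.1% and 62.0% in Th0. Rel made up 1.97% and 4.08% with dopamine and 4.68% and 5.56% in Th0. Nfkb2 made up 21.2% and 22.3% with dopamine and 19.3% and 20.1% in Th0. These 4 shares did not overlap between the groups, while the share of Rela did. The 5 shares make up one whole, so they are not separate results. The FPKM of Nfkb1 itself overlapped between the groups (147 and 142 with dopamine, 152 and 138 in Th0). In single-gene FPKM, 57.0% of all genes tested did not overlap between the groups. There were 8.19 and 3.42 Relb FPKM per Rel FPKM with dopamine, against 2.28 and 1.81 in Th0, the higher value again in Th0+Dopa 2. The sum of the 5 subunits itself was 251 and 250 FPKM with dopamine and 241 and 223 FPKM in Th0.

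**Figure D2:**
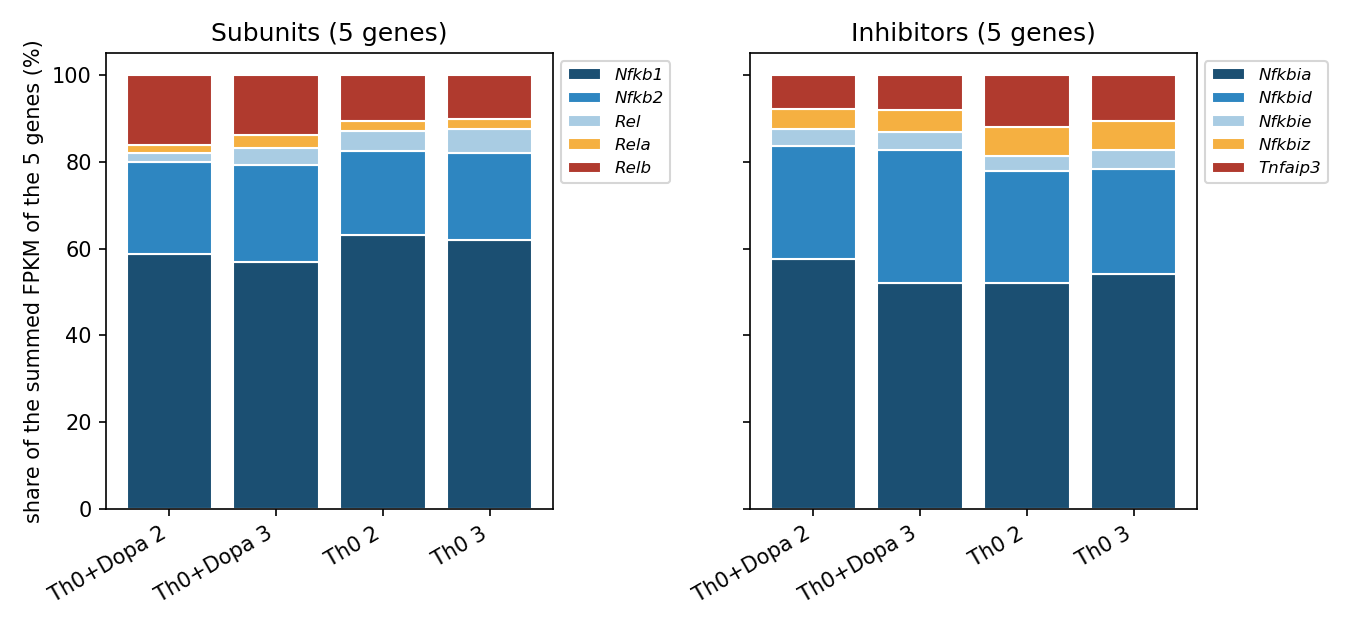
Share (%) of each gene in the summed FPKM of the 5 subunits (left) and of the 5 inhibitors (right), one bar per library, dopamine libraries first. The Relb share is 16.2% and 14.0% with dopamine against 10.7% and 10.1% in Th0, and the Tnfaip3 share 7.73% and 7.90% against 11.9% and 10.7%.

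Among the inhibitors, Tnfaip3 had the difference of largest size. It encodes A20, a ubiquitin-editing enzyme that shuts down signalling upstream of the IκB kinase. Tnfaip3 (ENSMUSG00000019850, chromosome 10, 19000910 to 19015657) stood at 17.05 and 17.06 FPKM with dopamine and at 26.3 and 22.9 FPKM in Th0. Both dopamine values were below both Th0 values. The difference was -0.50 ± 0.14, with -0.60 in the first table and -0.41 in the second, and a 95% confidence interval from -0.84 to -0.16. It did not pass over all genes tested (limma adjusted p = 0.0761). Among protein-coding genes alone it did (adjusted p = 0.0321), and likewise when every library was scaled to one sum of FPKM (-0.74, adjusted p = 0.0423). That scaling moved the median of all genes to -0.20. Relative to the median of all genes, Tnfaip3 differed by -0.545 under that scaling and by -0.529 without it, nearly the same. After the correction for GC content and length the difference of Tnfaip3 was -0.38 (adjusted p = 0.129).

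Nfkbiz, which encodes the nuclear protein IκBζ, a cofactor of NF-κB at a subset of its targets, stood at 10.4 and 11.3 FPKM with dopamine and at 15.0 and 14.0 FPKM in Th0. The groups did not overlap. The difference was -0.39 ± 0.16 (95% confidence interval from -0.77 to -0.0060, limma adjusted p = 0.174) and did not pass. Under the common sum it was -0.63 (adjusted p = 0.0891). Relative to the median of all genes, Nfkbiz differed by -0.425 under that scaling and by -0.416 without it. Nfkbid encodes the other nuclear inhibitor here, IκBNS, which in T cells is known to bear on Il2 and on regulatory T cell development. It stood at 57.4 and 66.6 FPKM with dopamine and at 56.9 and 51.9 FPKM in Th0, a difference of 0.18 ± 0.13 (adjusted p = 0.410) that came almost wholly from the second table (0.35, against 0.01 in the first). After the correction for GC content and length it was 0.0090 (adjusted p = 0.975). There were 5.52 and 5.92 Nfkbid FPKM per Nfkbiz FPKM with dopamine, against 3.80 and 3.71 in Th0.

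The cytoplasmic inhibitors Nfkbia and Nfkbie had differences near 0. Nfkbia stood at 127 and 112 FPKM with dopamine and at 115 and 116 FPKM in Th0, and the groups overlapped. Its difference was 0.05 ± 0.11, with a 95% confidence interval from -0.22 to 0.32 (limma adjusted p = 0.817). Nfkbie, which encodes IκBε, stood at 8.51 and 8.65 FPKM with dopamine and at 7.59 and 9.36 FPKM in Th0, a difference of 0.02 ± 0.18 (95% confidence interval from -0.42 to 0.46, adjusted p = 0.952). Both carried a κB match before their start, as did Tnfaip3. The summed FPKM of the 5 inhibitors was 221 and 216 with dopamine and 221 and 214 in Th0, and Tnfaip3 made up 7.73% and 7.90% of it with dopamine and 11.9% and 10.7% in Th0.

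**Figure D3:**
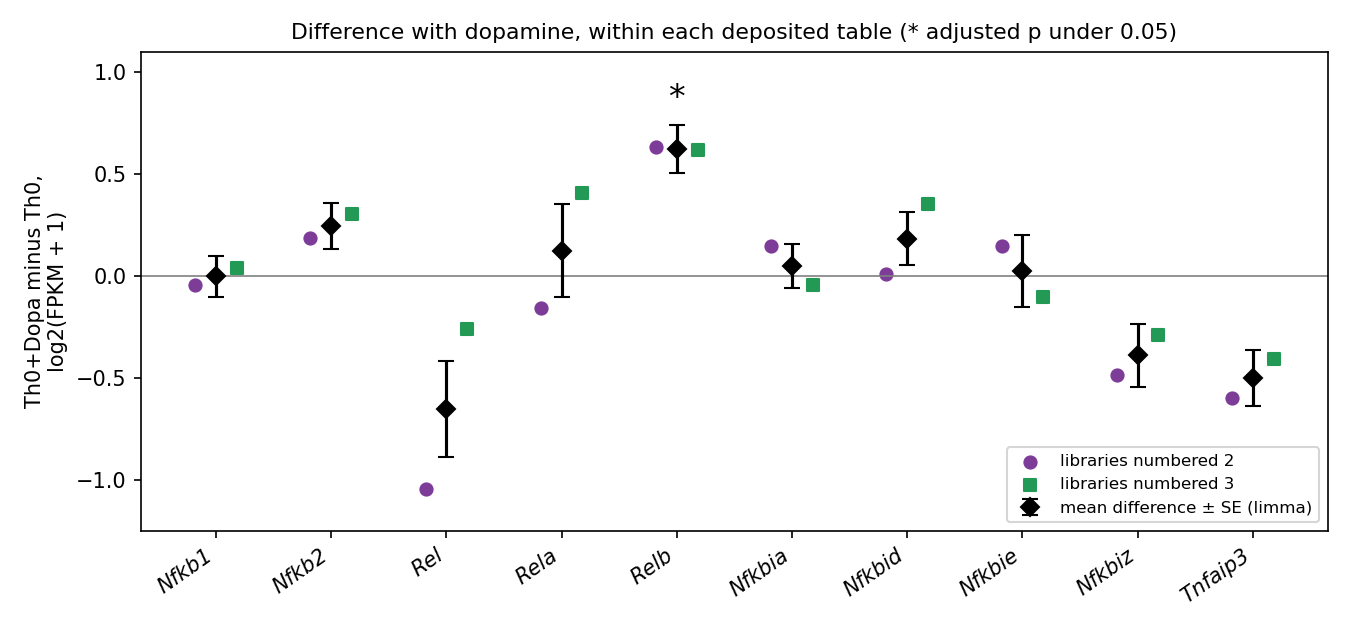
Difference with dopamine (Th0+Dopa minus Th0, log2(FPKM + 1)) for each gene: circles are libraries numbered 2, squares libraries numbered 3, diamonds the mean with its SE from limma. Relb, marked with a star, is the gene past an adjusted p of 0.05, and the 2 tables differ most for Rel (-1.05 and -0.26).

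The genes whose pattern over the 4 libraries lay nearest to that of Relb and of Rel were sought among protein-coding genes, as the distance between log2(FPKM + 1) values centred on the mean of each gene. For Relb these were Fbxo6 (distance 0.029), the kinase gene Pim1 (0.029) and the ribosomal protein gene Rpl3 (0.030). For Rel they were Dnase1 (0.067), Farp1 (0.080) and Card6 (0.094), the first and last of which are near or under 2 FPKM. The likeness over 4 libraries is given as a description.

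The rest of the pathway was read from 3 lists of genes that are not among the 10. None of the 25 genes for kinases, adaptors and ubiquitin ligases that activate NF-κB was called in either direction (0 higher, 0 lower by limma), beside 10.7% of all genes tested, and 3 of the 25 had an unadjusted p under 0.05, beside 27.8% of all genes tested. Their median difference was -0.04. The adaptor gene Traf1, itself known as an NF-κB target, was the highest of them. Traf1 stood at 12.1 and 14.8 FPKM with dopamine and at 8.50 and 8.27 FPKM in Th0, a difference of 0.61 ± 0.17 (limma adjusted p = 0.0798). Under the common sum Traf1 differed by 0.38 (adjusted p = 0.279). Sharpin, a component of the linear ubiquitin ligase, was the lowest, with 18.2 and 16.7 FPKM with dopamine and 24.9 and 22.1 FPKM in Th0 (-0.41 ± 0.13, adjusted p = 0.112). Under the common sum Sharpin differed by -0.65 (adjusted p = 0.0546). When that sum was taken without small RNA genes the value was -0.60, which passed (adjusted p = 0.0335). These scalings moved the median of all genes to -0.20 and -0.16, so part of the larger fall is shared by all genes. Map3k14, the kinase of the non-canonical arm, stood at 5.05 and 5.70 FPKM with dopamine and at 4.95 and 5.01 FPKM in Th0 (0.09 ± 0.20, adjusted p = 0.815).

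Of 22 other negative regulators, 1 rose and 1 fell, 9.09% in all and near the 10.7% of all genes tested. Nfkbil1, which encodes a protein resembling the IκB family, stood at 15.7 and 10.6 FPKM with dopamine and at 6.57 and 5.78 FPKM in Th0. The groups did not overlap, and the difference was 0.96 ± 0.18 (limma adjusted p = 0.0326), or 0.64 and not past the threshold after the correction for GC content and length (adjusted p = 0.0908). Under the common sum it was 0.73 and did not pass either (adjusted p = 0.064). Exons of Nfkbil1 overlap those of Atp6v1g2 and Gm16181 on the opposite strand, which stood at no more than 1.26 and 1.055 FPKM. Tnip3, which encodes a partner of A20, stood at 3.87 and 3.27 FPKM with dopamine and at 8.63 and 9.90 FPKM in Th0. Its difference was -1.17 ± 0.21 (adjusted p = 0.0266), or -0.92 after the same correction (adjusted p = 0.0556). Nfkbib, the gene of IκBβ, was named after its values were seen. It stood at 9.61 and 11.8 FPKM with dopamine and at 6.24 and 6.88 FPKM in Th0 (0.62 ± 0.17, adjusted p = 0.0790).

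Genes known as NF-κB targets in lymphocytes changed in both directions: 7 of 32 tested rose and 4 fell, 34.4% in all beside 10.7% of all genes tested. Their median difference was -0.0020, so the list did not move one way. The list was drawn up with earlier results of these data known, and these shares were not tested against each other. The median SE was 0.127 in this list and 0.171 over all genes tested, so a difference of a given size is called more easily in the list. The chemokine gene Ccl4 rose most, with 70.3 and 91.8 FPKM with dopamine and 18.1 and 19.7 FPKM in Th0 (2.03 ± 0.13, limma adjusted p = 0.00116). The granulocyte-macrophage growth factor gene Csf2 stood at 20.8 and 22.6 FPKM with dopamine and at 8.14 and 8.49 FPKM in Th0 (1.29 ± 0.15, adjusted p = 0.00741). The stress response gene Gadd45b (1.17 ± 0.15) and the survival gene Bcl2a1b (0.71 ± 0.10) rose too. Under the common sum Bcl2a1b differed by 0.46 (adjusted p = 0.0499). It has near-identical copies and shares 401 exon bases on the same strand with Gm29094, a gene not analysed here, so its own value is uncertain.

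The targets that fell were the costimulatory receptor gene Tnfrsf9, Il2, Cd83 and Cd69. Tnfrsf9 stood at 67.2 and 58.7 FPKM with dopamine and at 156 and 151 FPKM in Th0 (-1.27 ± 0.11, limma adjusted p = 0.00301). Il2, the growth factor of activated T cells, stood at 94.6 and 105 FPKM with dopamine and at 189 and 191 FPKM in Th0 (-0.93 ± 0.10, adjusted p = 0.00712), or -0.54 after the correction for GC content and length, still past the threshold (adjusted p = 0.0432). For these 2 genes each dopamine value was under each Th0 value by a wide margin. The surface proteins Cd83 and Cd69 differed by -0.86 ± 0.19 and -0.50 ± 0.11 (adjusted p = 0.0446 and 0.0441), and neither passed after the correction for GC content and length (-0.79 and -0.24, adjusted p = 0.0692 and 0.206).

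**Figure D4:**
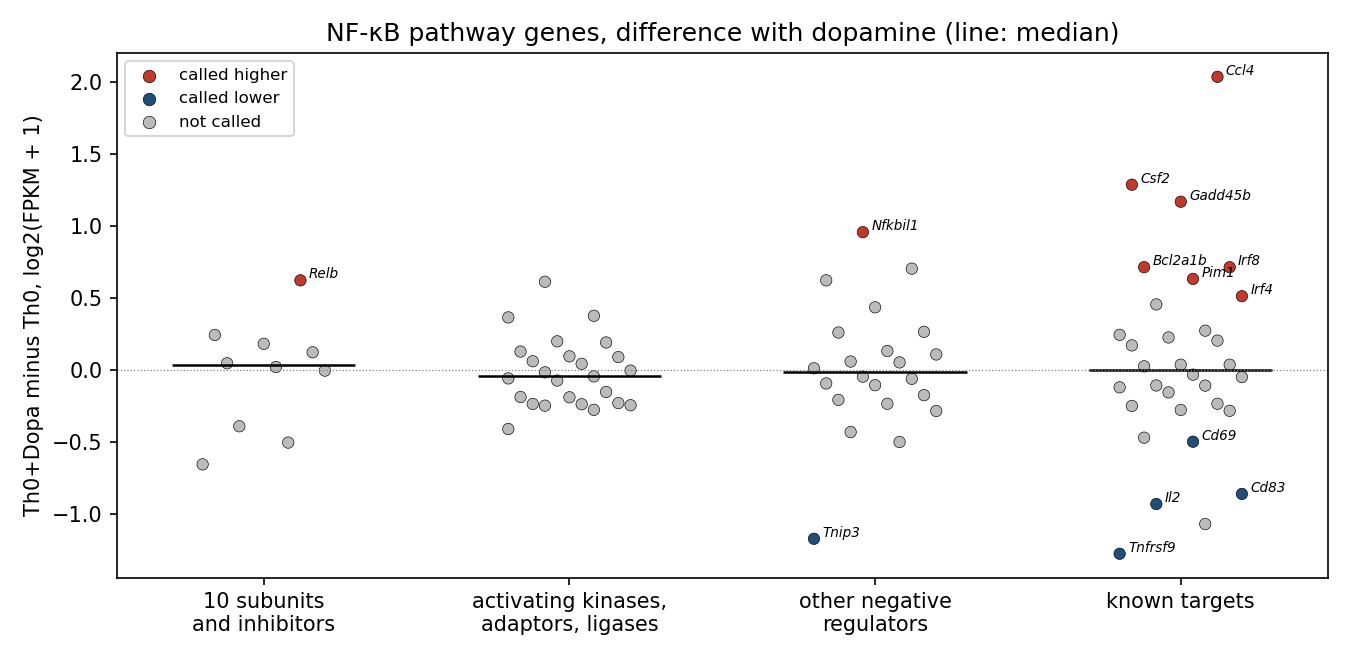
Difference with dopamine (Th0+Dopa minus Th0, log2(FPKM + 1)) for the 10 subunits and inhibitors and the 3 lists of other pathway genes; each point is a gene and the line is the median of its list. Called genes are named: 7 known targets lie above and 4 below 0, and 0 of the 25 activating genes are called.

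Across the whole tables, FPKM summed to 880583 and 794873 with dopamine and to 687066 and 715110 in Th0, and 717 genes were called higher and 501 lower. RNA of T cell markers was found in every library: 14 such markers, Cd4 among them, summed to 2674 and 2454 FPKM with dopamine and to 2507 and 2472 FPKM in Th0. These markers do not show that other cells were absent, and the naive state was not examined. Of these 14 markers 4 rose and 1 fell, beside 6.28% and 4.39% of all genes tested. Among other blood cells, markers of macrophages and dendritic cells and of granulocytes, basophils and mast cells moved with the treatment. Of 2 tested B cell markers and 1 tested CD8 T cell marker, 0 were called. No marker of NK cells or erythroid cells passed the filter on low values. Of 11 tested markers of macrophages and dendritic cells 10 fell, beside 4.39% of all genes tested. The sum over the list of 12 was 88.3 and 81.8 FPKM with dopamine and 522 and 693 FPKM in Th0. All 8 tested markers of granulocytes, basophils and mast cells fell, with sums over the list of 10 of 50.1 and 46.8 FPKM with dopamine and 447 and 594 FPKM in Th0, and Elane was listed at 0 in both dopamine libraries. In Th0, Lyz2 (121 and 136 FPKM) and Mcpt8 (142 and 187 FPKM) stood near or above Cd4 (122 and 123 FPKM). Other markers, such as Csf1r (3.12 and 4.37 FPKM), were far lower. With dopamine Lyz2 stood at 14.3 and 13.3 FPKM, Mcpt8 at 15.8 and 15.0 FPKM and Cd4 at 115 and 120 FPKM. Macrophages, granulocytes and their kin also express NF-κB genes, and their part in the differences given here, higher or lower, was not tested. In bulk RNA, fewer cells of a type and less RNA per cell cannot be told apart.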

How the data were processed

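The authors deposited FPKM per gene in 2 tables, the libraries numbered 2 in the first and those numbered 3 in the second; per the submitters' processing notes the tools were Trimmomatic 0.35, STAR 2.4.2 and Cufflinks 2.2.1 with mm10. Per the labels' protocols, total RNA went into a stranded, rRNA-depleted library. The sources used here name neither the annotation nor the normalization options, nor whether counting used the strand. From the steps between the lowest values of single-transcript genes, 1 fragment on a 1 kb transcript was worth 0.159 and 0.158 FPKM with dopamine and 0.155 and 0.206 FPKM in Th0, an estimate of depth rather than a count. GENCODE M21 named 36423 of the 38282 IDs.

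Differences were fitted in limma 3.58.1 (R 4.3.3; lmFit, eBayes with trend) on log2(FPKM + 1) over 11423 genes with a mean of at least 1 FPKM, two-sided, with the deposited table, which equals the replicate number, as a block. This leaves 1 residual degree of freedom per gene, to which the prior adds 4.70. For genes of low level a fold change on this scale is an underestimate. The correction for GC content and length fitted the difference between dopamine and Th0 to both, over all genes with these values, within each table. The fitted trend, centred on the median difference, was then taken off. It thus also removes any true difference that follows GC content or length. The block stands for tables made separately; no label says that a number marks one animal or culture, and none that libraries came from separate cultures, so p-values reflect the spread between these 4 samples alone, which may be technical. The 10 genes, the lists and the tests were chosen with earlier results of these data known. Named genes are the 10, and from each list up to 4 called genes with the largest difference in each direction, or its most extreme gene where none was called; Map3k14 and Nfkbib were added after their values were seen. Of the lists' genes, Bcl2a1d was not analysed here and Ptgs2 lay under the filter.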

Additional observations from a re-analysis of the deposited data

How the results depend on the processing

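The call of Relb (1 of the 10 genes higher, 0 lower) held with pseudocounts of 0.1 and 0.5, other filters on low values, protein-coding genes alone, median of ratios scaling and limma's robust setting. It was lost (0 higher) with libraries scaled to a common sum, also with small RNA genes left out first (0.43, adjusted p = 0.0656), in limma without the trend (adjusted p = 0.123), after the correction for GC content and length, and with no replicate block (adjusted p = 0.0787). With no replicate block, 4 other pathway genes were called higher and 3 lower, and 256 of all genes higher and 240 lower. Leaving out each library in turn (no block) gave 0 of the 10 higher and 0 lower, with 0.50 to 0.74 for Relb (adjusted p = 0.163 to 0.474), 0 and 0 of the other pathway genes, and 0 to 3 higher and 0 to 2 lower of all genes. Of the 10 genes, 1 (Tnfaip3) was lower among protein-coding genes and with both common sums. Relative to the median of all genes, Tnfaip3 changed little with these sums (-0.545 and -0.537, against -0.529 in the main fit). Other pathway genes, 8 higher and 5 lower as reported, were 4 and 8 with the common sum, 14 lower with small RNA genes left out first, 2 and 0 without the trend, 2 lower with no filter and 3 lower after the GC correction. All genes called, 717 higher and 501 lower, were 376 and 1064 with the common sum, 1413 lower with small RNA genes left out first (median of all genes -0.16), 106 and 150 without the trend, 442 and 298 with no filter and 1077 and 907 among protein-coding genes; the cause was not tested.

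Signs changed for genes that had not passed. With the common sum they were Nfkb2 (-0.0060), Rela (-0.090), Nfkbia (-0.20), Nfkbid (-0.068) and Nfkbie (-0.21), and when small RNA genes were left out first Rela (-0.047), Nfkbia (-0.15), Nfkbid (-0.018) and Nfkbie (-0.16), where the median of all genes fell about as far. After the GC correction they were Nfkb1 (0.042), Rela (-0.17), Nfkbia (-0.048) and Nfkbie (-0.079). Without 1 library in turn (no block, after median of ratios scaling), the range spanned 0 for Nfkb1 (-0.091 to 0.085), Rela (-0.10 to 0.35), Nfkbia (-0.058 to 0.15) and Nfkbie (-0.094 to 0.14). Over the 22 genes named by rule and 16 alternatives, 260 of 352 values kept their direction and side of the threshold, 69 lost the call, 5 gained it and 18 changed sign. Many of the 22 genes were not called to begin with, and those that stayed uncalled count among the 260. All of the 69 fall on genes that had been called, so the pooled share overstates how stable the calls were.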
